A study of Homo sapiens with 2 samples.

Results

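A set of 10 genes of the S100 family was followed in MIA PaCa-2, an established cell line from a human pancreatic carcinoma, after TPST2, a Golgi enzyme that sulfates tyrosines of secreted and membrane proteins, had been targeted. The 10 genes (S100A2, S100A3, S100A4, S100A6, S100A10, S100A11, S100A13, S100A14, S100A16 and S100P) were chosen by symbol from the 58698 genes of the deposited table. The tested culture carried a guide against TPST2 (sgTPST2, labelled TPST2 KD), and the control culture carried a guide against GFP (sgGFP, labelled WT), a gene that human cells lack. Both are the same cell line, and the sources used here do not say whether the guided cells were a pool or a clone. Each culture gave 1 library of total RNA, so there is no replicate spread to judge a difference by.

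S100 proteins are small calcium-binding proteins that usually work as dimers. Each subunit carries a pair of EF-hand loops, and calcium opens a surface through which the dimer grips a partner, often an annexin, a myosin or another cytoskeletal protein. Several members are also released from cells and act on receptors such as AGER (RAGE). Most of the genes sit in a cluster on the long arm of chromosome 1, and S100A4, S100A6, S100A10, S100A11, S100A2 and S100P are well known from pancreatic tumours.

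The library labels were checked first with the targeted gene. TPST2 stood at 1.92 FPKM (fragments per kb of transcript, corrected for library depth) in sgTPST2 and at 8.46 FPKM in sgGFP. The authors' deposited table gives it p = 0.00215 and q = 0.245, so it is not called there at 0.05. Differences are given as log2((sgTPST2 + 1)/(sgGFP + 1)), where a negative value means lower in sgTPST2; this scale understates changes near 1 FPKM. From the smallest steps in low values, a level of 1 FPKM was worth about 47.2 fragments for each kb in sgTPST2 and 42.6 in sgGFP. The ± beside a difference is a Poisson 95% interval from the fragments that a transcript of the gene's median annotated length would give, and it covers counting error only. Over the 13420 genes with a higher value of at least 1 FPKM, the median difference was 0.00.

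Of the 10 genes, 8 passed 1 FPKM. S100A16, S100A2 and S100A3 were at least 1.5-fold lower in sgTPST2, and 0 were 1.5-fold higher. Over all genes past the same filter, 6.94% were 1.5-fold lower and 4.41% were 1.5-fold higher. The other 5, which are the 5 most abundant, lay within 1.5-fold, and the median of the 8 was -0.29. S100A14 and S100P stayed under 1 FPKM in both libraries.

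**Figure D1:**
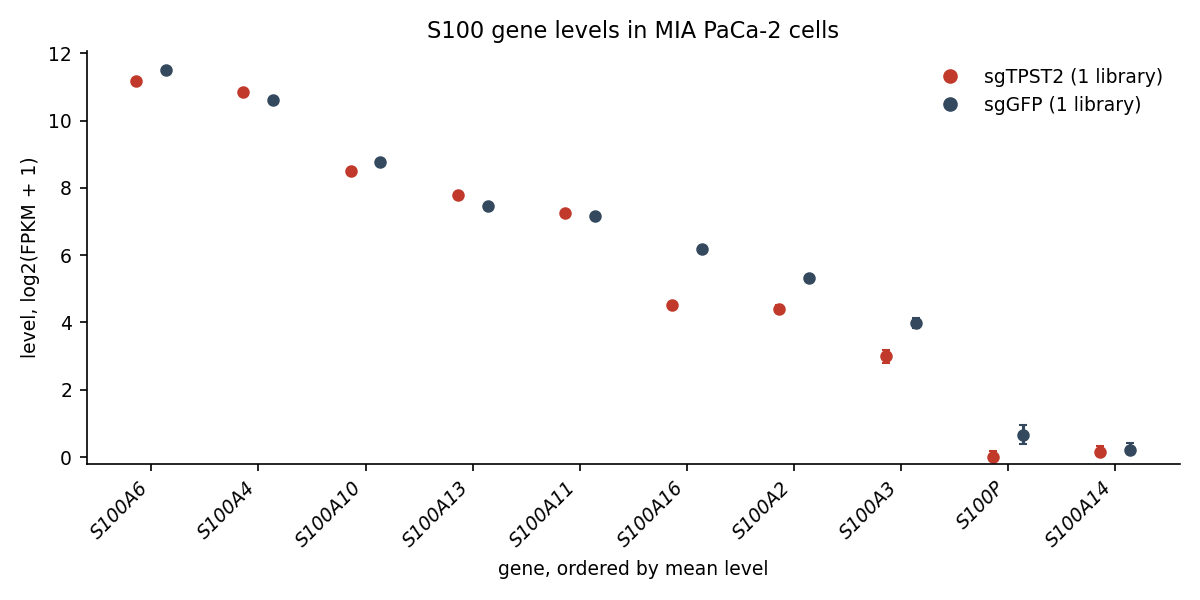
Level of each S100 gene on the log2(FPKM + 1) scale, 1 library per condition, with sgTPST2 to the left of sgGFP and bars giving the Poisson 95% counting interval. S100A16, S100A2 and S100A3 stand lower in sgTPST2 by more than these bars, which cover counting error only. The 5 genes above 100 FPKM stand close together in both libraries.

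S100A16, a broadly expressed member that can pair with S100A14, had the largest difference of the 8 members past the filter. The gene (ENSG00000188643.10, GRCh38, chromosome 1, 153606886 to 153613145, minus strand) stood at 21.7 FPKM in sgTPST2 and at 71.4 FPKM in sgGFP. The log2 difference was -1.67 ± 0.11, and S100A16 was the 1 member at least 2-fold lower with 1 added, which 2.93% of all genes were. That count depends on the pseudocount. With 0.1 added, S100A3 was past 2-fold lower too, at a log2 difference of -1.07, and S100A16 was at -1.71. The p-value of S100A16 is 0.00015 and its q-value is 0.0332 in the authors' deposited table. S100A16 was the 1 member under a q of 0.05 there, a level that 0.425% of the 18574 genes tested by the authors reached in the lower direction. Among 19940 protein-coding genes ranked by level, it stood at place 4280 in sgTPST2 and at place 1453 in sgGFP.

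S100A2, a largely nuclear and epithelial member that binds p53, was also lower. The gene (ENSG00000196754.10, chromosome 1, 153561108 to 153567890, minus strand) stood at 20.1 FPKM in sgTPST2 and 38.7 FPKM in sgGFP. Its log2 difference was -0.91 ± 0.16. The authors' deposited table gives p = 0.113 and q = 0.9997, so the gene is not called there.

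S100A3, a cysteine-rich member best known from the hair cuticle, showed a difference of similar size at a lower level. The gene (ENSG00000188015.9, chromosome 1, 153547329 to 153549372, minus strand) stood at 6.96 FPKM in sgTPST2 and 14.7 FPKM in sgGFP. Its log2 difference was -0.98 ± 0.23. The authors' deposited table gives p = 0.592 and q = 0.9997, so S100A3 is not called there. S100A3 lies inside the annotated span of S100A4 on the same strand, although 0 of its exon bases are shared with S100A4. Its level was 0.377% of that of S100A4 in sgTPST2 and 0.948% in sgGFP. The S100A4 level counts all its transcripts. The RefSeq start of S100A4 used below lies downstream of S100A3 (its sequence shown is chr1:153545886-153546056). Pre-mRNA from that start would not cover S100A3, and pre-mRNA from a start upstream of S100A3 would. Whether such S100A4 pre-mRNA, which a total RNA library also captures, adds to the S100A3 value was not tested.

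The sequences before the starts of these 3 genes are shown beside those of S100A4 and S100A11, which were not lower. They are taken from RefSeq (build GRCh38.p14), whose table held windows for all 10 genes, 14 in all. S100A2 has a second start, whose window lies wholly in annotated exons and is not shown. Each line is the longest stretch without an annotated GENCODE exon within the 250 bases before a start, written 5′ to 3′ along the gene. Capitals mark matches on either strand to 4 short motifs, which do not overlap in these stretches. The AP-1 motif was searched as TGANTCA. The E2-box, the motif of the SNAIL family of repressors, was searched as CAGGTG. The TATA box was searched as TATAAA. The GC box, the motif of SP1, was searched as GGGCGG.
S100A16, distal start, chr1:153613146-153613387, minus strand: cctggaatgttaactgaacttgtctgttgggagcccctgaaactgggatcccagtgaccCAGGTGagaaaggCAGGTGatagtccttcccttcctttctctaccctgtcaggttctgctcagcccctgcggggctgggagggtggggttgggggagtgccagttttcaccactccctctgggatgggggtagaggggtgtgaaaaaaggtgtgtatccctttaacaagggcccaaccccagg
S100A16, proximal start, chr1:153609356-153609605, minus strand: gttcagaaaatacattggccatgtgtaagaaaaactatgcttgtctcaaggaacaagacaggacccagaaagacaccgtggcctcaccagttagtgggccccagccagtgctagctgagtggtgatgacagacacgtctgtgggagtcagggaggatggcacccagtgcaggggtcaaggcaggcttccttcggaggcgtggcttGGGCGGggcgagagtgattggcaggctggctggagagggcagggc
S100A2, chr1:153565866-153566094, minus strand: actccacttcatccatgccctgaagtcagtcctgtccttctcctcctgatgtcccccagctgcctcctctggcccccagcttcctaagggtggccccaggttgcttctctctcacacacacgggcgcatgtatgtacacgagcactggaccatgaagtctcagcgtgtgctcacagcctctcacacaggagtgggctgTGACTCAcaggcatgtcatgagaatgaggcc
S100A3, chr1:153549373-153549508, minus strand: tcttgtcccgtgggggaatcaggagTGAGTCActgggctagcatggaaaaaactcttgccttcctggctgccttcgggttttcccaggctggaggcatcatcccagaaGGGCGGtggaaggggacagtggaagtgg
S100A4, chr1:153545886-153546056, minus strand: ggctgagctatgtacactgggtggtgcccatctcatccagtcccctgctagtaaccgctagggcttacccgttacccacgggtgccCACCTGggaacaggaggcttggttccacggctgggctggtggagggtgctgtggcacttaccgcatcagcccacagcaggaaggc
S100A11, chr1:152037036-152037254, minus strand: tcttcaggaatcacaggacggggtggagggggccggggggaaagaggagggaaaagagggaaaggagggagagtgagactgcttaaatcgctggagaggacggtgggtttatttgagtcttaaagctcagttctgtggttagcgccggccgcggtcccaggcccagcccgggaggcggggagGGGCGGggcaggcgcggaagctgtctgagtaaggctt

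In the full windows of 250 bases, the AP-1 motif occurred before S100A2 and S100A3 and before 0 of the other 8 genes. Of 35116 RefSeq windows of this length, 6.57% held it. The E2-box occurred before S100A16, S100A2, S100A14, S100A4 and S100P, against 17.5% of all windows, and S100A16 held it at 2 places before its distal start. In S100A2 it lies before the second start, outside the stretch shown. The TATA box was found before S100A4, S100A13 and S100P (10.7% of all windows), and the GC box before 6 genes, S100A16 and S100A3 among them (42.6% of all windows). These percentages count windows, while a gene was counted if any of its windows held the motif. Counted by window, AP-1 was in 2 of the 14 windows, the E2-box in 5, the TATA box in 3 and the GC box in 6. All are matches of letters and do not show that a factor binds.

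The windows also differed in CpG dinucleotides, the sites of DNA methylation. This comparison and its limit of 7 CpG were chosen with the values in view. For each gene the window with the most CpG was taken. The 3 lower genes had 6 (S100A16), 4 (S100A2) and 4 (S100A3), whereas S100A4 had 7, S100A11 and S100A13 had 15 each, and S100A6 and S100A10 had 24 each. S100A5, which was lower as well, had 5, and S100A1, which was not, had 6. Among protein-coding genes with a window, differences past 1.5-fold in either direction were more frequent at low CpG content. Of 470 protein-coding genes with at most 7 CpG, 16% were 1.5-fold lower and 9.15% were 1.5-fold higher, while of 8727 genes with more, 4.95% were lower and 2.65% higher. Windows were matched for 83.3% of the 11043 protein-coding genes with the status OK (tested by the authors) and at least 1 FPKM. Genes of low and high CpG content were not matched for level or for number of windows. Any link of CpG content to the S100 values was not tested.

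**Figure D2:**
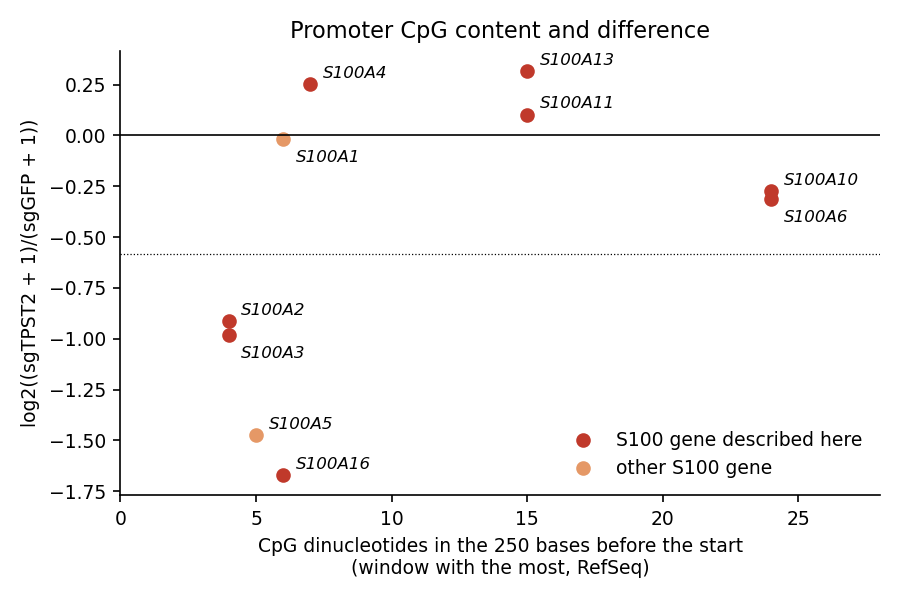
CpG dinucleotides in the 250 bases before the start (window with the most, RefSeq) against the log2 difference, for the 8 S100 genes described here and the 2 other S100 genes that reached 1 FPKM. The 4 genes below the dotted line (1.5-fold lower) have 4 to 6 CpG, and S100A1, with 6, and S100A4, with 7, lie near or above 0.

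S100A4 and S100A6 made up most of the family's RNA in both cultures. S100A6 (calcyclin), which binds the ubiquitin ligase adaptor CACYBP and annexins, stood at 2308 FPKM in sgTPST2 and 2871 FPKM in sgGFP, with a log2 difference of -0.32 ± 0.017. S100A4 (metastasin), which binds non-muscle myosin and is tied to cell motility and metastasis, stood at 1844 FPKM in sgTPST2 and 1550 FPKM in sgGFP, with a log2 difference of 0.25 ± 0.024. These counting intervals are narrow because each value rests on at least 24368 fragments, yet both differences are inside 1.5-fold, and both genes have q = 0.9997 in the authors' deposited table.

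Together these 2 genes held 84.2% of the summed FPKM of the 10 genes in sgTPST2 and 83.5% in sgGFP, out of sums of 4930 FPKM in sgTPST2 and 5297 FPKM in sgGFP. With one higher and the other lower in sgTPST2, the ratio of S100A4 to S100A6, which no rescaling between libraries can change, was 0.799 in sgTPST2 and 0.540 in sgGFP. The 3 lower genes added little to the sum, with 48.8 FPKM in sgTPST2 and 124.8 FPKM in sgGFP.

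The annexin-binding members were close in both cultures. S100A10 (p11), an unusual member whose EF-hands no longer bind calcium and which joins annexin A2 at the plasma membrane, stood at 358 FPKM in sgTPST2 and 433 FPKM in sgGFP (log2 difference -0.27 ± 0.051). Its partner ANXA2 was at 609 FPKM in sgTPST2 and 637 FPKM in sgGFP, so the ratio of S100A10 to ANXA2 was 0.588 in sgTPST2 and 0.679 in sgGFP. S100A11, a partner of annexin A1, stood at 152 FPKM in sgTPST2 and 142 FPKM in sgGFP (log2 difference 0.10 ± 0.078). ANXA1 itself was at 1100 FPKM in sgTPST2 and 890 FPKM in sgGFP.

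S100A13, which takes part in the release of FGF1 and interleukin-1 alpha by a route that bypasses the Golgi, had the highest positive difference of the 8 members past the filter. It stood at 219 FPKM in sgTPST2 and 176 FPKM in sgGFP, with a log2 difference of 0.32 ± 0.064 and q = 0.9997 in the authors' deposited table. S100A13 shares 10.6% of its exon bases with S100A1 on the opposite strand and 24.2% with the non-coding gene AL162258.1 on its own strand. AL162258.1 was at 2.94 FPKM in sgTPST2 and 3.04 FPKM in sgGFP, and S100A1 at 1.47 FPKM in sgTPST2 and 1.502 FPKM in sgGFP, both far below S100A13.

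The order of the 8 expressed genes by FPKM was the same in both libraries: S100A6, S100A4, S100A10, S100A13, S100A11, S100A16, S100A2, S100A3. All neighbours in this order were apart by more than their counting intervals in sgGFP. In sgTPST2 this held for all neighbours but S100A16 and S100A2, whose intervals of 20.3 to 23.3 FPKM and 18.3 to 22.1 FPKM overlap.

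S100A14, an epithelial member, was at 0.0991 FPKM in sgTPST2 and 0.155 FPKM in sgGFP, about 4 fragments in sgTPST2 and 6 in sgGFP, and was not tested by the authors. S100P, a RAGE ligand that many pancreatic cancers express strongly, is listed at 0 in sgTPST2 and stood at 0.562 FPKM in sgGFP, about 14 fragments. The authors' deposited table gives it the status OK, p = 0.0335 and q = 0.9997. An exact 0 in this table can be a failed estimate, so its difference is given only among the alternative settings at the end.

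The rest of the family was low or listed at 0. Of 10 other S100 genes, S100A5 and S100A1 reached 1 FPKM. S100A5, a member known from olfactory neurons, stood at 3.11 FPKM in sgTPST2 and 10.4 FPKM in sgGFP, a log2 difference of -1.47 ± 0.33, with p = 0.0335 and q = 0.9997 in the authors' deposited table. S100A1, best known from heart and skeletal muscle, was at 1.47 FPKM in sgTPST2 and 1.502 FPKM in sgGFP. S100A8, S100A9 and S100A12, the abundant S100 proteins of myeloid cells, are listed at 0 in both libraries, as are S100A7A and S100B. S100A7 and S100G stayed under 0.1 FPKM and S100Z under 0.3 FPKM in both libraries.

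On chromosome 1, the lower members S100A3, S100A2 and S100A16 follow one another in order, while S100A5 lies between genes within 1.5-fold. From S100A6 to S100A13, 96.8 kb, the order of genes is S100A6, S100A5, S100A4, S100A3, S100A2, S100A16, S100A14, S100A13, all on the minus strand. S100A5, at -1.47, lies between S100A6 at -0.32 and S100A4 at 0.25. Next in order after S100A4 come S100A3 at -0.98, S100A2 at -0.91 and S100A16 at -1.67. S100A16 lies 1.11 kb from S100A14, which was near 0 FPKM, too low to show a difference. S100A10 and S100A11 lie apart from this run, at the other end of the span from 151982915 to 153631360 that holds the 9 members on chromosome 1, and S100P lies on chromosome 4.

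Most of the other genes around them lay within 1.5-fold. Of 113 protein-coding genes outside the family within 1 Mb of that span, 44 passed 1 FPKM, and their median log2 difference was 0.09. Of these 44, 1 was 1.5-fold higher and 2 were 1.5-fold lower. All 44 lie outside the span, on either side of it, and not among the S100 genes. Over all genes past the filter, 4.41% were 1.5-fold higher and 6.94% lower, shares that also serve for the lists below. By the rule for named genes, the largest differences at 5 FPKM or more were those of TUFT1, at 8.90 FPKM in sgTPST2 and 6.15 FPKM in sgGFP, TDRKH, at 6.84 FPKM in sgTPST2 and 9.36 FPKM in sgGFP, CDC42SE1, at 54.4 FPKM in sgTPST2 and 43.0 FPKM in sgGFP, and POGZ, at 7.61 FPKM in sgTPST2 and 5.84 FPKM in sgGFP. The 2 lower genes and the higher one were named after their values were seen. The lower ones were SELENBP1, at 0.116 FPKM in sgTPST2 and 2.79 FPKM in sgGFP, and ANXA9, at 0.330 FPKM in sgTPST2 and 1.17 FPKM in sgGFP. Both passed the filter through sgGFP alone. The higher one was MLLT11, at 4.11 FPKM in sgTPST2 and 2.34 FPKM in sgGFP.

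**Figure D3:**
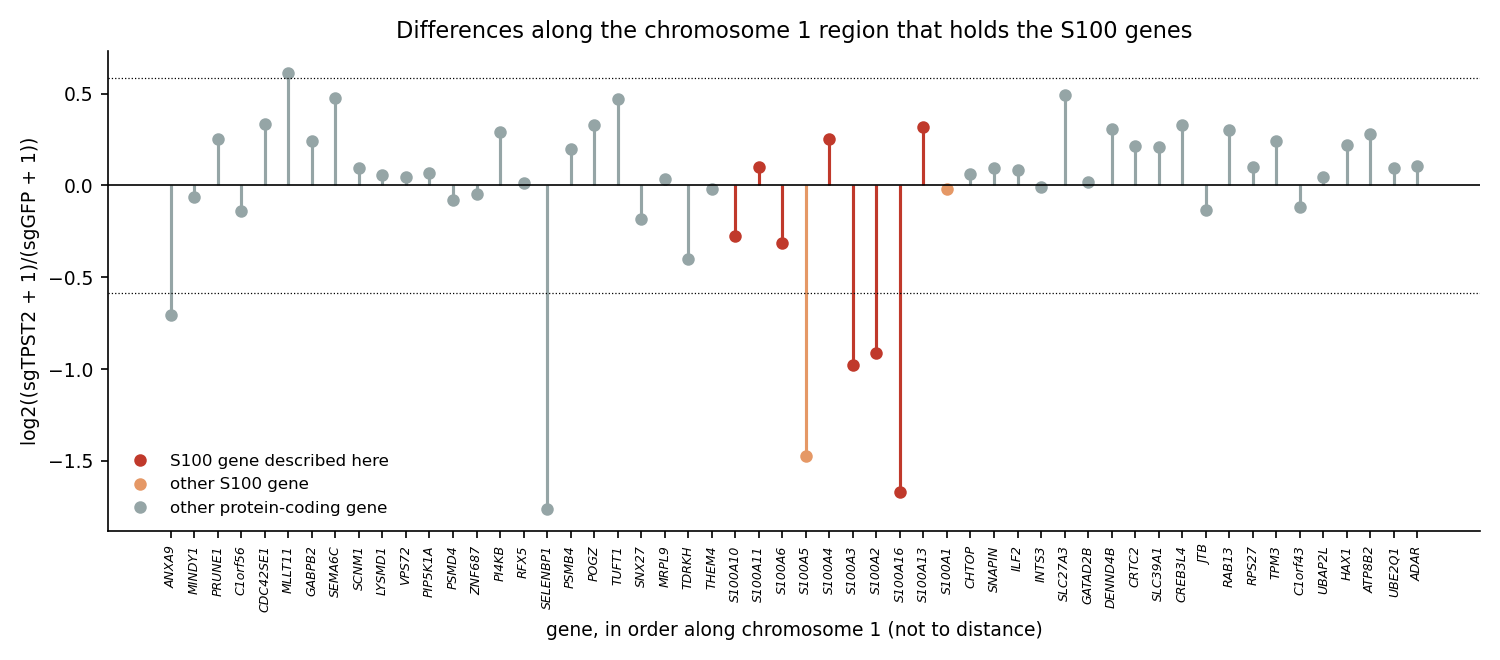
Log2 difference of the protein-coding genes at 1 FPKM or more in and around the S100 cluster, in their order along chromosome 1 and not to distance, with dotted lines at 1.5-fold. S100A5, S100A3, S100A2 and S100A16 reach from -0.91 to -1.67 amid S100A6, S100A4 and S100A13, which stay between -0.32 and 0.32.

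Annexins, the calcium-dependent membrane binders that S100 dimers grip, gave values on both sides of 0. Of 12 annexins 8 passed 1 FPKM, with 1 of them 1.5-fold higher, 1 lower (ANXA9, given above), 6 within 1.5-fold and a median of 0.31. The higher one was ANXA6, at 174.8 FPKM in sgTPST2 and 96.0 FPKM in sgGFP, and q = 0.510 in the authors' deposited table. ANXA11, a partner of S100A6, was at 145 FPKM in sgTPST2 and 113 FPKM in sgGFP, ANXA7 at 77.2 FPKM in sgTPST2 and 62.0 FPKM in sgGFP, and ANXA5 at 106 FPKM in sgTPST2 and 85.4 FPKM in sgGFP. All 3 lay within 1.5-fold. ANXA7 and ANXA11 lie on chromosome 10. ANXA10, named after its values were seen, stayed under the filter. It is listed at 0 in sgTPST2 and stood at 0.367 FPKM in sgGFP, about 11 fragments. Its q of 0.01255 is the lowest of the 12 annexins in the authors' deposited table, and an exact 0 there can be a failed estimate.

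Most intracellular partners of S100 proteins past 1 FPKM lay within 1.5-fold. Of 16 genes, 15 passed 1 FPKM, 11 lay within 1.5-fold, 4 were lower and 0 higher, and the median was -0.07. Over all genes past the filter, 6.94% were 1.5-fold lower and 4.41% higher. PPFIBP1 (liprin beta 1), which binds S100A4, stood at 6.34 FPKM in sgTPST2 and 15.3 FPKM in sgGFP. It lies on the short arm of chromosome 12, where 117 of 140 protein-coding genes past the filter were 1.5-fold lower (median -0.86), and any part of this in the PPFIBP1 value was not tested. EZR (ezrin), which links actin to the membrane and binds S100P, stood at 101 FPKM in sgTPST2 and 174 FPKM in sgGFP, with q = 0.893 in the authors' deposited table. The other 2, named after their values were seen, are tied to the release route of S100A13. They were IL1A, at 0.0752 FPKM in sgTPST2 and 1.11 FPKM in sgGFP, and SYT1, at 0.799 FPKM in sgTPST2 and 2.37 FPKM in sgGFP. Both passed the filter through sgGFP alone. SUGT1, a partner of S100A6, was at 73.8 FPKM in sgTPST2 and 57.6 FPKM in sgGFP.

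Genes for the outside roles of S100 proteins went both ways. Of 5 cell surface receptors, BSG and ALCAM passed 1 FPKM. BSG (basigin) was at 195 FPKM in sgTPST2 and 246 FPKM in sgGFP, and ALCAM, named after its values were seen, was the 1 gene 1.5-fold higher, at 4.72 FPKM in sgTPST2 and 1.55 FPKM in sgGFP. AGER, the receptor RAGE, also named after its values were seen, stayed under the filter at 0.953 FPKM in sgTPST2 and 0.302 FPKM in sgGFP. Of 8 genes of plasminogen activation, the surface reaction that S100A10 and annexin A2 promote, 4 passed 1 FPKM, 1 was lower and 0 were higher. That one was the urokinase receptor PLAUR, at 5.27 FPKM in sgTPST2 and 15.1 FPKM in sgGFP. Urokinase (PLAU) was at 89.99 FPKM in sgTPST2 and 106.7 FPKM in sgGFP. PLGRKT, a plasminogen receptor, was at 32.6 FPKM in sgTPST2 and 29.8 FPKM in sgGFP.

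Other EF-hand genes mostly lay within 1.5-fold, as did most genes. Of 24 genes, 20 passed 1 FPKM, 19 lay within 1.5-fold, 1 was lower and the median was 0.01. Over all genes past the filter, 11897 of 13420 lay within 1.5-fold, 6.94% were lower and 4.41% higher. The lower one was CALB2 (calretinin), a calcium buffer, at 1.01 FPKM in sgTPST2 and 19.5 FPKM in sgGFP, with q = 0.0484 in the authors' deposited table. Among those at 5 FPKM or more, the next by size was the calpain subunit CAPN2, at 187 FPKM in sgTPST2 and 265 FPKM in sgGFP. After it came the Golgi protein NUCB1, at 27.5 FPKM in sgTPST2 and 34.4 FPKM in sgGFP, and the calpain subunit CAPN1, at 33.6 FPKM in sgTPST2 and 41.5 FPKM in sgGFP.

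**Figure D4:**
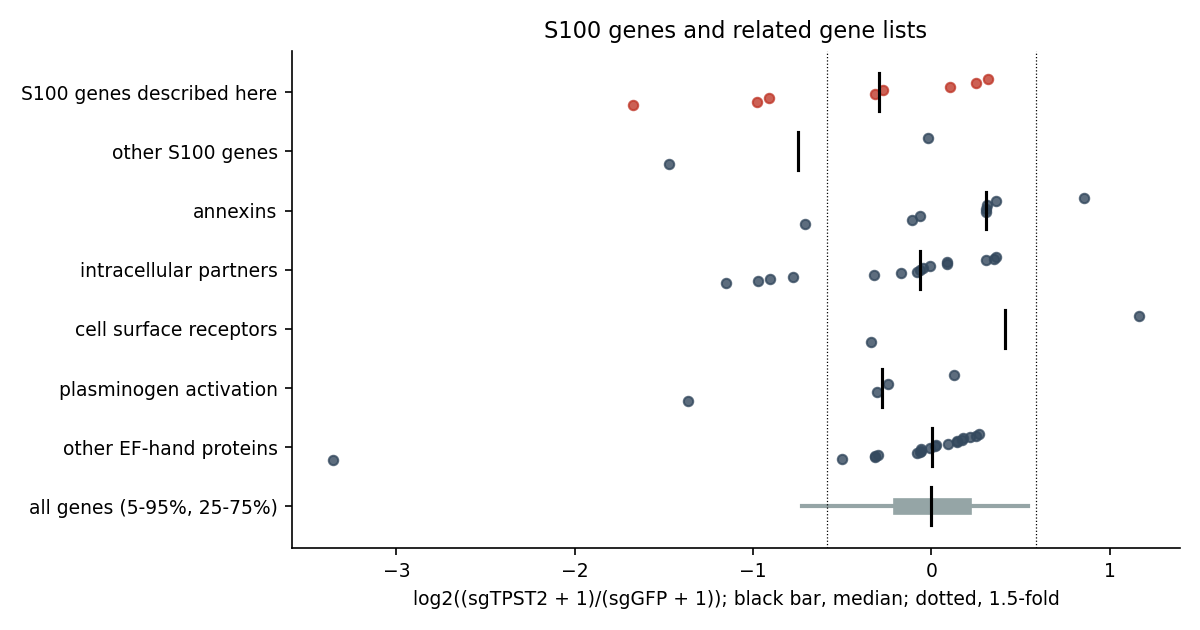
Log2 difference of each gene at 1 FPKM or more in the S100 group and in 6 related lists, 1 point per gene, with black bars at the medians and the spread of all 13420 genes at the bottom (thin line 5 to 95%, thick line 25 to 75%). The S100 genes have 3 points left of the dotted 1.5-fold line and 0 points right of the other, and CALB2 is the 1 EF-hand gene outside both lines.

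Marker lists were read beside these values. Of 7 markers of pancreatic cancer cells, VIM stood at 3118 FPKM in sgTPST2 and 2661 FPKM in sgGFP, and the keratins KRT8, KRT18 and KRT19 were 6.77-fold to 13.8-fold lower on the log2 scale with 1 added. KRT7 and CDH1 stayed under 1 FPKM, and EPCAM is listed at 0 in both libraries. So S100A16, S100A2 and S100A3 were lower in the same library as these keratins, and any part of that in the S100 values was not tested. Of 5 myeloid markers, CD14 alone passed 1 FPKM, and their summed level was 2.20 FPKM in sgTPST2 and 3.21 FPKM in sgGFP. Of 6 fibroblast markers, COL1A2 and COL3A1 passed, both 1.5-fold lower, with a summed level of 15.6 FPKM in sgTPST2 and 47.6 FPKM in sgGFP, while DCN and LUM are listed at 0 in both. The melanocyte and Schwann cell markers (5) and the adipocyte and chondrocyte markers (4) all stayed under 1 FPKM. Fewer cells with a transcript and less RNA per cell cannot be told apart in such bulk libraries.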

How the data were processed

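RNA of 2 MIA PaCa-2 cultures, 1 per condition, was compared. The submitters' processing notes name STAR, Cuffdiff and the build hg38, while versions, annotation release and strand setting are not stated there. The labels' protocols name a stranded kit for total RNA. The authors' deposited table gives 1 value per gene and library under a header with no unit; these were read as FPKM made by the authors with Cuffdiff, and the authors' scaling was kept. The p-value and q-value are the authors'. The deposited log2 fold change equals log2((sgTPST2 + 1)/(sgGFP + 1)) to within 2.1e-15. The score column of the deposited table, the authors' test statistic, was not used.

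All 58698 identifiers match GENCODE release 29 (GRCh38), the source of coordinates and transcript lengths. The filter kept genes whose higher value reached 1 FPKM, and the pseudocount was 1. With 1 library per group there was no test. Depth was read from genes with a single transcript over 1500 bp: 92.3% of 878 low values in sgTPST2 and 91.3% of 930 in sgGFP were within 0.1 of whole fragments, where even spread gives 20%. Step and offset were fitted on these same values. Where a gene had several transcripts, the median annotated length was used.

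The members and lists were chosen with earlier results of these data known. Named genes are the members, the other S100 genes, TPST2 and, per list, up to 4 genes with the largest absolute difference at 5 FPKM or more; 1 gene that this rule names is not reported here. The depth step and the fold calls were tested on simulated data. Python 3.11.15, pandas 2.3.3 and SciPy 1.17.1 were used. The alternatives were a pseudocount of 0.1, no filter, a filter of 5 FPKM, the same upper quartile, the same sum, and protein-coding genes alone.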

Additional observations from a re-analysis of the deposited data

How the results depend on the processing

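No paired analysis was possible because there is 1 library per condition, which also means that no replicate could be left out. With a pseudocount of 0.1, a filter of 5 FPKM, the same upper quartile or the same sum, 3 S100 genes were 1.5-fold lower; with no filter, 4 were, since S100P, listed at 0 in sgTPST2, then counts. In all 5 settings 0 were 1.5-fold higher. With a pseudocount of 0.1, the difference of S100A14 was -0.35 and that of S100P was -2.73, a value that the pseudocount itself sets. Over all genes, 592 were 1.5-fold higher and 931 lower. A pseudocount of 0.1 gave 928 higher and 1227 lower, and a filter of 5 FPKM gave 326 higher and 524 lower. Protein-coding genes tested by the authors gave 349 higher and 651 lower. The filter and the gene class leave fewer genes. Depth limits S100A14 and S100P, which rest on 14 fragments or fewer.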
